A study of Mus musculus with 2 samples.

Results

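The Lyve1 and Fcna macrophages of mouse dorsal skin were 469 of the 17492 cells kept from 2 single-cell libraries, 273 of 8875 in the wildtype library and 196 of 8617 in the Eppk1 knockout library. They were chosen by their own UMIs (unique molecular identifiers, 1 for each captured probe molecule), so the genes that chose them are described here and not tested. Kept cells held between 200 and 45000 UMIs and between 100 and 7500 genes, with no more than 10% of UMIs from mitochondrial genes. A gated macrophage was a kept cell with at least 0.1% of its UMIs from the complement genes C1qa, C1qb and C1qc, at least 1 UMI of the lysosomal protease gene Ctss, under 2% from Col1a1, Col1a2, Col3a1 and Dcn, and under 1% from Dsp, Perp, Sfn and Krt10. A member was a gated macrophage with at least 2 UMIs of Lyve1 and Fcna together and more of them than of Ccl8 and Cd209b together.

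Both libraries came from whole dorsal skin of untreated mice: 1 wildtype C57BL/6J mouse, and 1 Eppk1 knockout (Eppk1-/-) mouse whose line had been backcrossed to that strain. Eppk1 encodes epiplakin, a large cytolinker of epithelial cells that binds keratin filaments, and the study asked what its loss does in skin. Skin was dissociated with enzymes, fixed and read with the Flex assay, in which pairs of probes are hybridised to transcripts, and a sample barcode on the probes tells the pooled mice apart. With 1 library for each genotype no test between genotypes was possible: every difference below is between 2 libraries and has no replicate check, and genotype, mouse, dissociation and library cannot be told apart. The sex and age of the mice were not given in the sources used here.

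Macrophages that carry LYVE1, a hyaluronan receptor shared with lymphatic endothelium, are long-lived resident cells that lie along vessels in skin, heart, fat and other tissues. They clear debris and lipoproteins through scavenger receptors such as MRC1 and CD163, and are classically poor in MHC class II. Fcna encodes ficolin A, a secreted lectin that recognises sugars on microbes and starts the lectin pathway of complement. Macrophages of the same skin that are richer in class II present antigen to T cells and are renewed in part from blood monocytes.

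The markers were read next, of which Lyve1 and Fcna are fixed by the rule and say nothing on the label. Lyve1 (chr7:110850607-110863239, minus strand, GRCm38) had a UMI in 98.5% of wildtype and 98.0% of knockout members, and Fcna (chr2:25624666-25628030, minus strand) in 97.1% and 96.4%. Both genes were seen together in 261 wildtype members (95.6%) and 185 knockout members (94.4%), Lyve1 alone in 8 and 7, and Fcna alone in 4 and 4. Mrc1, the mannose receptor, which the rule did not use, had a UMI in 98.9% and 99.5% of members, and in 98.3% and 99.1% of Ccl8 and Cd209b macrophages, the other class of gated cells defined below. Its level was 3501 CPM in wildtype and 3288 CPM in knockout members, where CPM is the gene's summed UMIs per 1000000 non-mitochondrial UMIs of the same cells, and 4536 and 3804 CPM in the other class. The log2 ratio of knockout over wildtype for Mrc1 in members was -0.09, with a 95% interval of -0.15 to -0.03. Here and below, intervals are exact and cover counting error only.

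Markers of most other cell types were low, and those of monocytes were not. The monocyte-like list summed to 4768 CPM in wildtype and 5687 CPM in knockout members, of which Lyz2, a lysozyme gene that macrophages share, made 2712 and 3968 CPM, with Treml4 at 0. Prox1, the master regulator of lymphatic endothelium, which also carries LYVE1, had 4 UMIs in all wildtype and 1 UMI in all knockout members. Reln, Tie1 and Nts of the lymphatic list were at 0 in both, and the 10 lymphatic genes summed to 162 CPM and 116 CPM, mostly Fgl2 (139 and 94.1 CPM), which macrophages express too. Blood endothelial genes summed to 32.0 and 23.3 CPM, with Emcn, Cldn5, Vwf and Aqp1 at 0. Mast cell genes summed to 4.43 and 6.34 CPM, with Tpsab1, Mrgprb1, Mrgprb2 and Fcer1a at 0. T and NK cell genes summed to 43.3 and 72.9 CPM, led by Thy1, with Cd3g, Trac, Cd5 and Lck at 0. Pericyte genes summed to 9.20 and 9.51 CPM, and neutrophil genes to 34.4 and 40.2 CPM, nearly all Csf3r. Dendritic genes summed to 2086 and 1934 CPM, of which Mgl2, a lectin also of macrophages, made 1882 and 1469 CPM, and Clec9a and Il12b were at 0. Keratinocyte genes summed to 1248 and 1483 CPM and fibroblast genes to 1701 and 1882 CPM, against 35203 and 29035 CPM and 31297 and 46952 CPM in kept cells outside the gate. The gate itself set limits on UMIs of both kinds, so these low sums follow in part from the rule and do not check the label. No keratinocyte or fibroblast marker was at 0 in members, and the part of such RNA, or of monocyte genes, in the results was not tested.

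Eppk1 (chr15:76101481-76120195, minus strand) checked the genotype label. Keratinocyte-rich cells were the kept cells outside the gate with 1% or more of their UMIs from Dsp, Perp, Sfn and Krt10, with medians of 4939 UMIs in wildtype and 4842 in the knockout. Thinned to 2000 UMIs each, they had an Eppk1 UMI in 80.8% of wildtype and 23.1% of knockout cells, and unthinned in 87.9% and 35.3%. Their summed level was 3426 CPM in wildtype and 892 CPM in the knockout, a log2 ratio of -1.94, so probes for Eppk1 still gave signal in the knockout library. Members held 103 Eppk1 UMIs in wildtype (35.1 CPM) and 10 in knockout (10.6 CPM), a log2 ratio of -1.67 with an interval of -2.83 to -0.79. After the same thinning, which left out 19 wildtype and 31 knockout members as too shallow, Eppk1 had a UMI in 3.15% of wildtype and 0.61% of knockout members (12.5% and 5.10% unthinned), which was not read as expression by macrophages. The ratio was -0.25 when the limits on collagen and keratinocyte UMIs were tightened, and -0.53 in members of 4000 to 8000 UMIs.

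Among the sets of cells compared here, depth differed between the libraries most in the members. The median member had 11024 UMIs in wildtype (quartiles 6399 and 14431) and 4808.5 in the knockout (3064.5 and 6109), with 3535 and 1990.5 genes. Ccl8 and Cd209b macrophages, the gated cells with at least 2 UMIs of those genes and more of them than of Lyve1 and Fcna, had medians of 6578.5 and 5106.5 UMIs. Cells outside the gate had 4822 and 5030. The RNA content of a cell and its capture cannot be told apart, and ratios are given per UMI and, for the leading genes, in cells of like depth. Members summed to 2933818 UMIs in wildtype and 946048 in the knockout. Of 1211 droplet barcodes seen in both libraries, 33 wildtype and 18 knockout members used one, and no droplet held a member of each.

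Members made up 3.08% of kept wildtype cells (95% interval 2.73 to 3.46) and 2.27% of kept knockout cells (1.97 to 2.61). Among gated macrophages, which were 584 and 835 cells, they made up 46.7% (42.6 to 50.9) in wildtype and 23.5% (20.6 to 26.5) in the knockout. Ccl8 and Cd209b macrophages went the other way, with 240 cells (41.1%) and 540 cells (64.7%), and 71 and 99 gated cells fell in neither class. Cell numbers in the tissue, the yield of dissociation and the level of the marker genes in each cell cannot be told apart in these shares. Over all gated macrophages Lyve1 was 2053 CPM in wildtype and 677 CPM in the knockout, and Fcna 2385 and 1014 CPM. Ccl8 was 2834 and 2918 CPM there, and Cd209b 733 and 1120 CPM. The median member held 76 Lyve1 and Fcna UMIs in wildtype and 17 in the knockout, and 15 and 6 of Ccl8 and Cd209b. Near the limits, 5 wildtype and 10 knockout members had exactly 2 Lyve1 and Fcna UMIs, and 4 and 11 gated cells were left out with 1 UMI and none of Ccl8 or Cd209b. Members ahead by 1 UMI numbered 6 and 16, gated cells tied at 2 or more 5 and 16, and cells behind by 1 numbered 6 and 15.

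**Figure D1:**
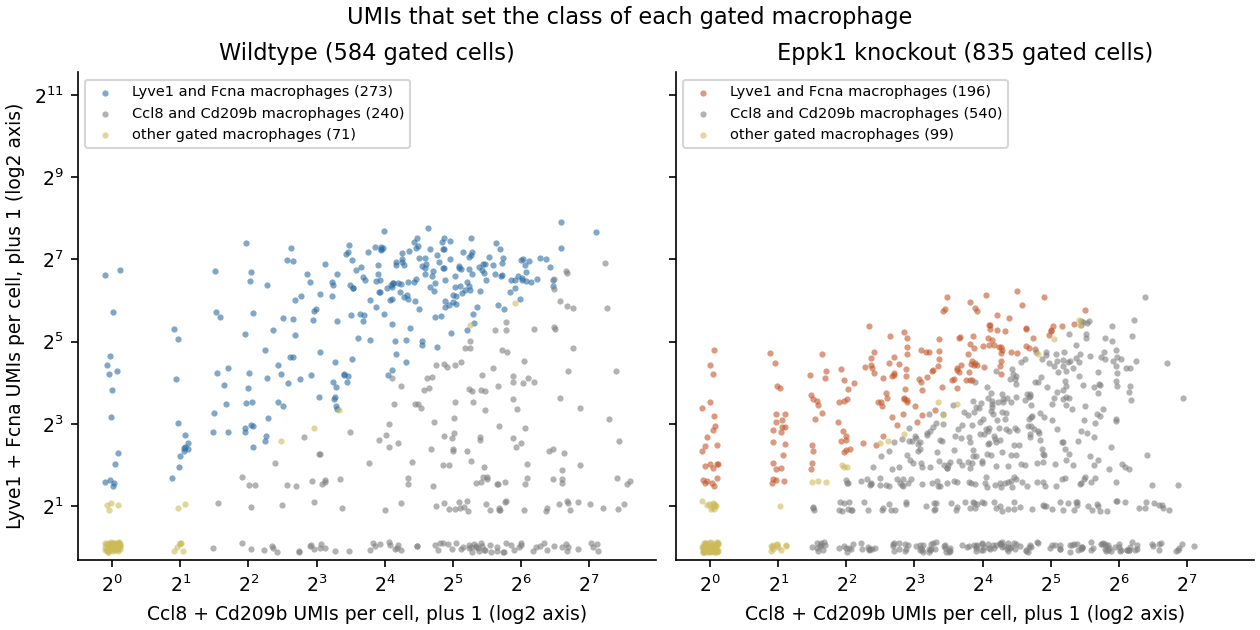
Each point is 1 gated macrophage, placed by its Ccl8 and Cd209b UMIs (x axis) and its Lyve1 and Fcna UMIs (y axis), both plus 1 on log2 axes with a small jitter, in the wildtype (left) and Eppk1 knockout (right) library. Wildtype members reach higher Lyve1 and Fcna counts (median 76 against 17 UMIs), and in the knockout the border between the classes runs through a continuous cloud of cells.

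Per UMI, Lyve1 stood at 3092 CPM in wildtype and 1441 CPM in knockout members, and Fcna at 3828 and 2621 CPM. In members of 4000 to 8000 UMIs Lyve1 was 2882 CPM in wildtype and 1527 CPM in the knockout, while Fcna was 2735 and 2693 CPM. These 2 genes chose the members and carry no test. Ccl8, a chemokine, was 1521 and 1147 CPM in members, and Cd209b, a lectin of the SIGN family, 485 and 596 CPM. C1qa was 7642 and 6186 CPM.

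Across all genes, the members of the 2 libraries were compared at the 5161 genes detected in 25% or more of the members of either library. A gene was called higher or lower in the knockout when its log2 ratio was 0.5 or more, or -0.5 or less, with 0.5 UMI added to each sum. By this rule of size, 309 genes were higher (5.99%) and 1246 lower (24.1%) in knockout members, and the median ratio of all genes was -0.19. After centring on that median the split was 635 higher and 703 lower. Wildtype members were deeper, and 2548 of the 5161 genes passed in wildtype alone and 10 in the knockout alone. All 10 of the latter were called higher, Cd209a, Cd300lb, Hpgd, Clec4b1 and Gpr34 among them, which follows in part from how they passed. Of the 2548 genes that passed in wildtype alone, 83 were higher and 830 lower (32.6%), which likewise follows in part from how those genes passed. Among the 2603 genes that passed in both, 216 were higher and 416 lower. In members of 4000 to 8000 UMIs, 361 were higher and 1313 lower of 4009 genes. The same rule called 149 genes higher (3.82%) and 335 lower (8.6%) among 3897 in Ccl8 and Cd209b macrophages, and 153 higher (4.14%) and 48 lower (1.3%) among 3699 in cells outside the gate.

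**Figure D2:**
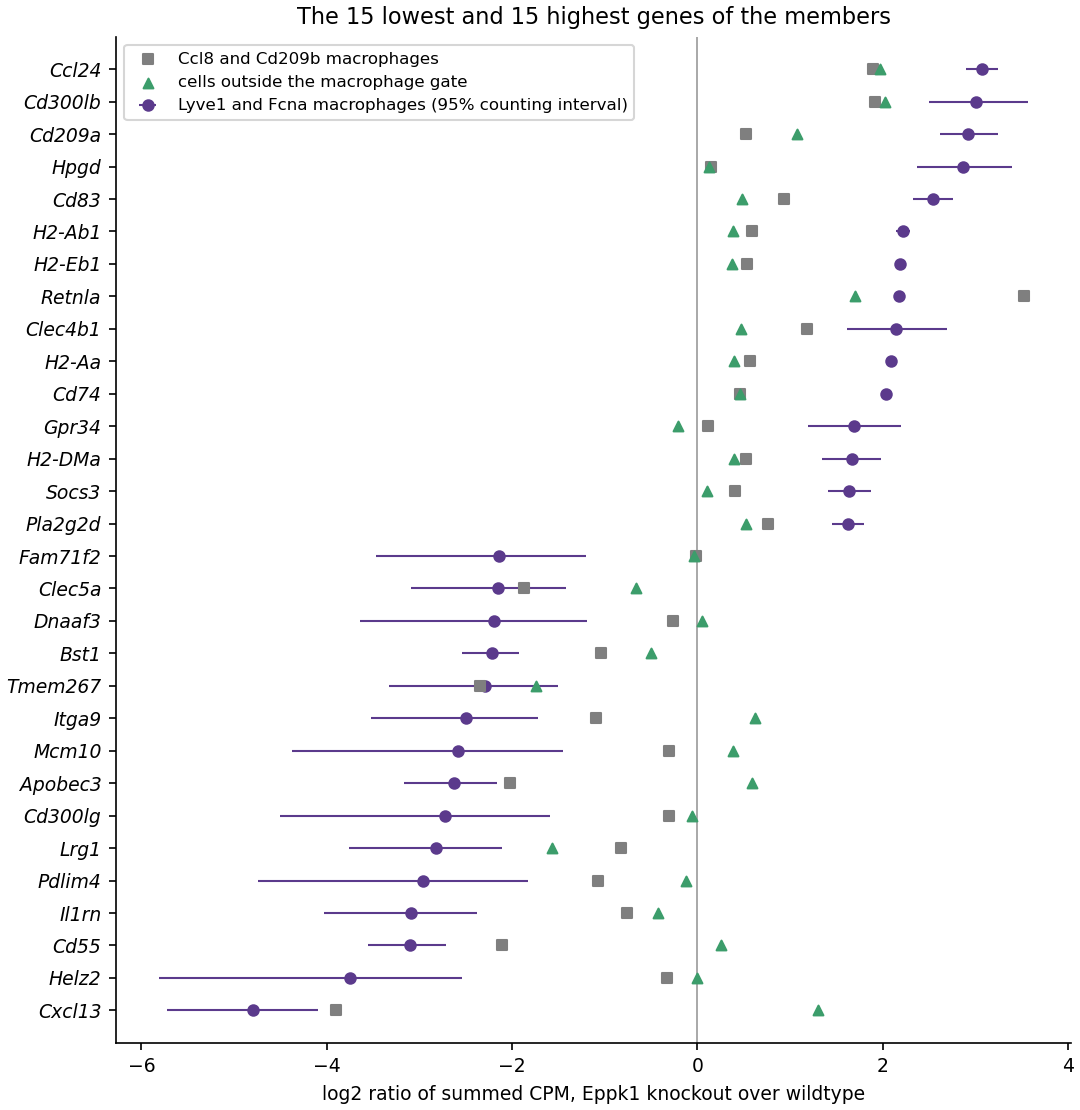
The x axis gives the log2 ratio of summed CPM, Eppk1 knockout over wildtype, and the rows are the 15 lowest and 15 highest genes of the members with at least 50 UMIs. Circles are members with 95% counting intervals, squares Ccl8 and Cd209b macrophages, triangles cells outside the gate. Ccl24 was the highest at 3.07 and Cxcl13 the lowest at -4.80, and the class II genes lie farther right in members than in the other cells.

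Class II antigen presentation stood out among the higher genes. The chains H2-Aa, H2-Ab1 and H2-Eb1, which lie together on chromosome 17 (chr17:34257689-34316674, GRCm38, the span from H2-Ab1 to H2-Eb1), form the molecules that show peptides to helper T cells. H2-Aa was 1551 CPM in wildtype members and 6609 CPM in knockout members, a log2 ratio of 2.09 (2.04 to 2.15). H2-Ab1 was 805 and 3748 CPM (2.22) and H2-Eb1 1255 and 5735 CPM (2.19).

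Cd74, the invariant chain that escorts class II molecules, was 4031 CPM in wildtype and 16613 CPM in knockout members (2.04). H2-DMa, which helps load the peptide, was 56.6 and 179.7 CPM (1.67). Of the 15 genes on the class II list 9 passed detection, 5 of them higher (these 5) and 3 lower, against 5.99% and 24.1% of all genes. Ifi30, a lysosomal thiol reductase (-0.83), and the costimulatory genes Cd40 (-0.57) and Cd80 (-0.51, interval -1.15 to 0.05) were lower, and Cd86 was 0.06. The median of the 9 genes was 1.67 in members and 0.48 in members of 4000 to 8000 UMIs, or 1.02 over the 9 list genes that passed detection in those cells.

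The same chains differed less in the neighbouring cells. In Ccl8 and Cd209b macrophages H2-Aa was 5946 and 8804 CPM (0.57) and Cd74 13404 and 18412 CPM (0.46), and in cells outside the gate the ratios were 0.40 and 0.46. The log2 ratio of members over the Ccl8 and Cd209b macrophages of the same library was -1.94 in wildtype and -0.41 in the knockout for H2-Aa. After thinning to 2000 UMIs, H2-Aa had a UMI in 54.3% of wildtype and 92.1% of knockout members (77.7% and 93.9% unthinned), and in 3.97% and 3.85% of keratinocyte-rich cells.

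Cell by cell, the sum of H2-Aa, H2-Ab1, H2-Eb1 and Cd74 had a median of 38.4 UMIs per 10000 in wildtype members, with the 10th percentile at 2.59 and the 90th at 188. In knockout members the median was 308, and the 10th and 90th percentiles were 49.6 and 693. Under 50 per 10000 were 159 wildtype members (58.2%) and 20 knockout members (10.2%), and at 200 or more were 27 (9.89%) and 133 (67.9%). The ranges overlapped, and cells of either kind were found in both libraries. In wildtype the 27 class II-rich members were shallower (median 6972 UMIs) than the 159 class II-poor ones (12484).

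**Figure D3:**
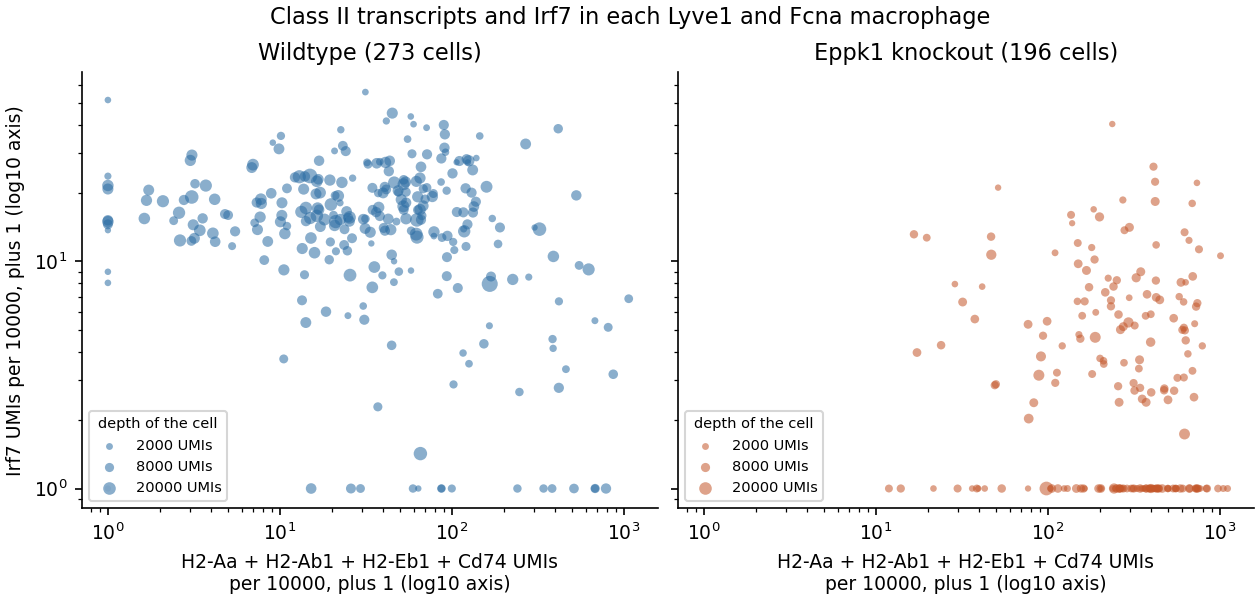
Each point is 1 member, placed by its class II UMIs per 10000 (x axis) and its Irf7 UMIs per 10000 (y axis), both plus 1 on log10 axes, in the wildtype (left) and Eppk1 knockout (right) library, with the area of a point growing with the cell's UMIs. Wildtype members lie mostly at the upper left and knockout members at the lower right, where 41.3% have no Irf7 UMI against 5.86% in wildtype.

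Genes on the list of alternative activation, a macrophage state that interleukin 4 and its relatives are known to induce, were the next group. Retnla (chr16:48842551-48844461, plus strand) encodes RELM alpha, a secreted protein of alternatively activated macrophages. It was 6770 CPM in wildtype and 30724 CPM in knockout members (2.18, interval 2.16 to 2.21). Retnla was 1097 and 12617 CPM in Ccl8 and Cd209b macrophages (3.52), and 101 and 329 CPM in cells outside the gate (1.70). The gene was higher in the knockout library in each of these 3 sets.

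Ccl24, an eosinophil-attracting chemokine, was 129 CPM in wildtype and 1089 CPM in knockout members (3.07), and 181 and 673 CPM in Ccl8 and Cd209b macrophages (1.89). Cd209a, a lectin also known as DC-SIGN, was 41.6 and 316 CPM (2.92), and Socs3, a brake on cytokine signalling, 106 and 331 CPM (1.64). These 4 were the higher ones of the 10 alternative activation genes that passed detection, of 19 measured. None was lower, against 5.99% higher and 24.1% lower of all genes. Ccl17 and Ccl22 had no UMI in members of either library. Cd209a passed detection through the knockout alone. The rest lay within the limits: Mrc1 was -0.09, Clec10a 0.03, Cd163 0.05, Il4ra 0.22 and Mgl2 -0.36, and the median of the 10 was 0.14. Cd209a and Mgl2 are also the 2 of 15 dendritic list genes that passed detection, against 5.99% higher and 24.1% lower of all genes. Cd209a was the higher 1 of those 2.

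Apoe, the apolipoprotein that carries cholesterol out of macrophages, was 13236 CPM in wildtype and 37422 CPM in knockout members, with an interval of 1.48 to 1.52 for the log2 ratio. It was 11931 and 24491 CPM in Ccl8 and Cd209b macrophages (1.04) and had a ratio of -0.21 outside the gate. Of 13 cholesterol efflux and LXR target genes that passed, with 5.99% of all genes higher and 24.1% lower, Apoe and Lpcat3 (0.65) were higher and Abcg1 (-0.57, interval -1.29 to 0.06) lower. Lpcat3 changed sign under several settings and is not read further. The cholesterol exporter Abca1 was 0.10 and the phospholipid transfer gene Pltp 0.44. Of 24 cholesterol synthesis genes 4 passed detection, none of them past the rule, with Hmgcs1 at -0.04 and Insig1 at 0.21.

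The interferon-stimulated list had more lower genes (14) than any other list looked at. Irf7 (chr7:141262706-141266481, minus strand), the factor that amplifies type I interferon production, was 1572 CPM in wildtype and 378 CPM in knockout members (-2.05). Its median per cell was 14.5 UMIs per 10000 in wildtype and 1.90 in the knockout. After thinning, Irf7 had a UMI in 89.4% of wildtype and 42.4% of knockout members (94.1% and 58.7% unthinned), in 21.1% and 20.2% of Ccl8 and Cd209b macrophages, and in 2.03% and 1.24% of keratinocyte-rich cells.

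Bst2, the tetherin that holds budding virus at the membrane, was 2461 CPM in wildtype and 878 CPM in knockout members (-1.49). Oas1a, a sensor of double-stranded RNA, was 335 and 111 CPM (-1.59). Usp18, which cuts ISG15 from proteins, was -1.15 and Ifitm3, which blocks virus entry, -0.78.

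All 28 interferon genes in the files passed detection, 14 of them lower and 1 higher, against 24.1% and 5.99% of all genes, and their median was -0.50 against -0.19 for all genes. The higher one was Ifi207 (0.67). Rsad2 (-0.27), Ifit1 (-0.21), Cxcl10 (-0.03), Oas2 (0.35) and Ifih1 (0.37) were within the limits. The median of the same genes was 0.13 in Ccl8 and Cd209b macrophages and -0.45 outside the gate. In members of 4000 to 8000 UMIs the median of the 28 genes was -0.01, and 0.05 over the 27 that passed detection in those cells. There Irf7 (-1.39), Oas1a (-1.13), Bst2 (-0.98) and Usp18 (-0.84) were lower, Ifih1 (1.20), Ifi207 (0.90), Cxcl10 (0.72) and Ifit1 (0.54) were higher, and Rsad2 (0.34) and Isg15 (0.17) lay within the limits. Several genes of the Oas, Ifit and Ifi200 families have near-identical copies, and reads of such copies may be shared by their probes.

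The upstream DNA of the interferon genes was read for GAAA, then 2 bases of any kind, then GAAA again, the core of the interferon-stimulated response element, on both strands, with matches allowed to overlap. Windows at gene starts (RefSeq, GRCm38.p6), which take in the 250 bases before the start, were searched. They held matches for 13 of the 23 interferon genes that have a window (56.5%), and in 978 of all 32851 windows (2.98%). None of the 10 class II genes with a window held them, and the window of Irf7 did not. Of these, the 250 bases before the start are shown for 4 windows, with matches on either strand in capitals. These were chosen because their genes stood at different ratios in the same cells: Bst2 at -1.49, Isg15 at -0.52, Ifit1 at -0.21 and Ifi207 at 0.67. The stretches shown lie at chr8:71537473-71537722 (minus strand), chr4:156200819-156201068 (minus), chr19:34640639-34640888 (plus) and chr1:173741810-173742059 (minus).
Bst2: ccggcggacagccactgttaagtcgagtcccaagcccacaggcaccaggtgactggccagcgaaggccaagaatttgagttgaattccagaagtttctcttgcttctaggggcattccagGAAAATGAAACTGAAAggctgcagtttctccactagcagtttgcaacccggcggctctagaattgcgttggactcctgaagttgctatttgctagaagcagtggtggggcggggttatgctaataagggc
Isg15: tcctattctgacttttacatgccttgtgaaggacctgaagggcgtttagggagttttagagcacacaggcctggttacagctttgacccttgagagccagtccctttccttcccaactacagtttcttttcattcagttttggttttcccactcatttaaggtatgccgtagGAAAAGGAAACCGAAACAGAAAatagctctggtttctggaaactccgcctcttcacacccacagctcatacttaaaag
Ifit1: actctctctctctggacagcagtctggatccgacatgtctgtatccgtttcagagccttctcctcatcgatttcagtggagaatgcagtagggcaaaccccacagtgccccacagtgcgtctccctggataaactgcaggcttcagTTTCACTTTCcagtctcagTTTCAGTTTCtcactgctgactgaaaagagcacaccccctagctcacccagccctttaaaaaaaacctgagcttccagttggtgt
Ifi207: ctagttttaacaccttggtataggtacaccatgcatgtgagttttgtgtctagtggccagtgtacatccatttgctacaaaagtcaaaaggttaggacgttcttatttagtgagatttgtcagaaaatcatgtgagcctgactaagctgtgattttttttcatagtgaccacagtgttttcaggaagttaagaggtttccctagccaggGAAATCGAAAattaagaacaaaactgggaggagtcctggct

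Bst2 and Isg15 held 2 and 3 overlapping matches in 1 run of bases, Ifit1 2 separate ones and Ifi207 a single one 31 bases before the start. A match describes these letters only.

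Genes of complement and of antibody uptake were lower or within the limits, with 1 higher in each list. Cd55 (chr1:130439027-130462744, minus strand), the decay-accelerating factor that protects cells from complement, was 458 CPM in wildtype and 52.9 CPM in knockout members (-3.10). It had a UMI in 82.8% and 15.8% of members (55.9% and 6.06% after thinning). Its ratio was -2.11 in Ccl8 and Cd209b macrophages and 0.26 outside the gate. C3, the central component of the cascade, was 561 and 189 CPM (-1.56, and -3.70 without the 5% of cells with the highest doublet scores), the alternative pathway genes Cfb and Cfp were -0.84 and -0.74, and the chains of complement receptor CR3, Itgam and Itgb2, were -0.79 and -0.88. In all, 7 of 14 complement genes were lower and 1 higher, against 24.1% and 5.99% of all genes, with a median of -0.46; C1qa, C1qb and C1qc among the 14 were used by the membership rule.

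Of 16 Fc receptor and adaptor genes that passed, 7 were lower and 1 higher, against the same shares of all genes, with a median of -0.48. The activating receptors Fcgr4 (101 and 34.9 CPM, -1.51) and Fcgr1 (614 and 277 CPM, -1.15) and the kinase gene Lyn (-0.70) were lower. Fcgr4 did not reach the detection limit in knockout members. Fcgr3, another activating receptor, was higher (771 and 1155 CPM, 0.58), and the inhibitory receptor Fcgr2b was 0.19. Lysosomal genes, which were all detected, had 7 lower and none higher of 28, near the 24.1% of all genes that were lower, with a median of -0.23, near the -0.19 of all genes. The scavenger-like membrane gene Cd68 (-0.64), the protease Ctsz (-0.69) and the cholesterol transporter Npc1 (-0.73) were among the lower, and the proteases Ctsb (0.17) and Ctsc (0.43) were within the limits.

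Among receptors for debris and sugars, the members were uneven. Siglec1, the sialic acid receptor CD169, was 1005 CPM in wildtype and 256 CPM in knockout members (-1.97), and 492 and 223 CPM in Ccl8 and Cd209b macrophages (-1.14). Scarb1, a receptor for high-density lipoprotein, was 43.3 and 9.51 CPM (-2.11), and Msr1, a receptor for modified lipoproteins, -0.78. Scarb1 did not reach the detection limit in knockout members. Cd300lb, an activating receptor detected through the knockout alone, was 14.3 and 116 CPM (3.01), and the lectin Clec12a had 148 and 100 UMIs (1.07). In all 4 of 19 lectin and scavenger genes were higher and 4 lower (5.99% and 24.1% of all genes), with a median of 0.03. Cd163, the hemoglobin scavenger, was 1762 and 1829 CPM (0.05). In members of 4000 to 8000 UMIs the median of the 19 genes was -0.52, and Clec12a was 2.68.

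Genes of the resident macrophage program were spread on both sides. Timd4, a receptor for phosphatidylserine on dying cells and a mark of long-lived resident macrophages, was 487 CPM in wildtype and 222 CPM in knockout members (-1.13), but -0.24 in members of 4000 to 8000 UMIs. Cbr2, a carbonyl reductase, was 3092 and 1451 CPM (-1.09), Pf4 1542 and 1006 CPM (-0.62) and the lectin Cd209f 3742 and 2562 CPM (-0.55). Folr2, the folate receptor used to mark resident macrophages, was 3036 and 3887 CPM (0.36).

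Selenop, which carries selenium, was 8725 and 15394 CPM (0.82), and Igf1, a growth factor, 195 and 328 CPM (0.75). Of 28 resident genes that passed, 7 were higher and 4 lower, against 5.99% and 24.1% of all genes, with a median of 0.06. The lineage receptor Csf1r was 1345 and 1384 CPM (0.04) and the factor Maf 0.06. Of 16 genes of the CSF1 receptor axis 4 were higher, Klf2 (0.53), Cebpa (0.61) and Nr4a1 (1.25) among them, and 1 lower (Csf2rb, -1.07), against the same shares of all genes, and Cebpa was -0.33 in members of 4000 to 8000 UMIs. Of 11 efferocytosis genes, with 24.1% of all genes lower, Timd4 and Sirpa (-0.66) were lower. Stab1 (0.63) was higher, but -0.66 in members of 4000 to 8000 UMIs. The receptor Mertk was 0.16 and its ligand Gas6 -0.45.

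Chemokines split by name. Cxcl13 (chr5:95956951-95961068, plus strand), which draws B cells, had 1248 UMIs in wildtype members (425 CPM, 55.3% of cells) and 14 in knockout members (14.8 CPM, 2.04% of cells), a log2 ratio of -4.80 with an interval of -5.72 to -4.09. It was 561 and 37.4 CPM in Ccl8 and Cd209b macrophages (-3.90) and 75.6 and 187 CPM outside the gate (1.31). After thinning it had a UMI in 31.1% of wildtype and 1.21% of knockout members. In members of 4000 to 8000 UMIs it had 318 UMIs in wildtype and 1 in the knockout.

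The monocyte-attracting chemokines Ccl2 (1154 and 538 CPM, -1.10) and Ccl7 (2259 and 1570 CPM, -0.52) were lower, and Ccl3 (355 and 672 CPM, 0.92) and Ccl4 (840 and 2176 CPM, 1.37) higher. The neutrophil-attracting Cxcl2 was 7706 and 6652 CPM (-0.21). Altogether 3 of 16 chemokines were higher and 4 lower, against 5.99% and 24.1% of all genes, with a median of -0.08. Among 19 cytokine and sensor genes, 2 were lower and 1 higher, against the 24.1% and 5.99% of all genes. Il1rn, the antagonist of the interleukin 1 receptor (131 and 14.8 CPM, -3.09), and Il18 (-1.15) were lower and Tnf higher (380 and 562 CPM, 0.56). Il10 was 917 and 715 CPM (-0.36). In members of 4000 to 8000 UMIs the median of the 16 chemokines was 0.34. There the ratio was 0.87 for Il10, 0.73 for Cxcl2, 1.67 for Ccl3, 2.60 for Ccl4 and 1.59 for Tnf. Ccl2 (-0.496) and Ccl7 (-0.17) lay within the limits there.

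Immediate early and heat shock genes, which dissociation is known to induce, held 10 higher genes. Hspa1a was 2033 CPM in wildtype and 4629 CPM in knockout members (1.19), Hspa1b 1832 and 4238 CPM (1.21), Egr1 940 and 2212 CPM (1.23) and Jun 1115 and 2187 CPM (0.97). Of 26 genes that passed, 10 were higher (5.99% of all genes were), Fos (0.64), Atf3 (0.90), Ier2 (1.16), Btg2 (1.21) and Dnajb1 (0.52) among them, and 1 was lower, Nr4a2 (-0.99). Their median was 0.31 in members, 0.23 in Ccl8 and Cd209b macrophages and -0.15 outside the gate. In members of 4000 to 8000 UMIs the median was 0.29. There Hspa1a was 0.505, Hspa1b 0.58 and Btg2 0.15, while Atf3 was 1.12. Whether handling had a part in the other differences was not tested.

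Of 23 glucocorticoid-responsive genes 7 were higher and 3 lower, against 5.99% and 24.1% of all genes. The metallothioneins Mt1 (1229 and 2167 CPM, 0.82) and Mt2 (0.60), Cebpd (1.02), Per1 (0.60) and Txnip (1.05) were among the higher, and Anxa1 (-0.57), Sgk1 (-0.60) and Pik3r1 (-0.53) were lower, with a median of 0.17. Of 9 clock genes Per1 alone was past the rule, against 5.99% higher and 24.1% lower of all genes. Nr1d1 (0.25) and Arntl (0.13) were within it. Iron and heme genes had 3 lower and none higher of 14, near the 24.1% of all genes that were lower: Hmox1, the heme-degrading oxygenase (5988 and 4093 CPM, -0.55), Blvra (-0.85) and Steap3 (-0.87), while the iron store gene Fth1 was -0.19 and Trf 0.15. Of 15 growth and matrix genes, 1 was lower and 1 higher, against 24.1% and 5.99% of all genes. Osm (146 and 44.4 CPM, -1.70) was lower and Igf1 higher, and Osm was 0.43 in members of 4000 to 8000 UMIs. In knockout members Osm fell short of the detection limit. Cell cycle genes were mostly undetected, as 5 of 20 passed, 3 of them lower (24.1% of all genes were). The helicase genes Mcm6 (-1.44), Mcm2 (-1.32) and Mcm3 (-0.81) were lower and Pcna was 0.18, but in members of 4000 to 8000 UMIs Mcm2 was 0.92 and Mcm6 -0.44.

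**Figure D4:**
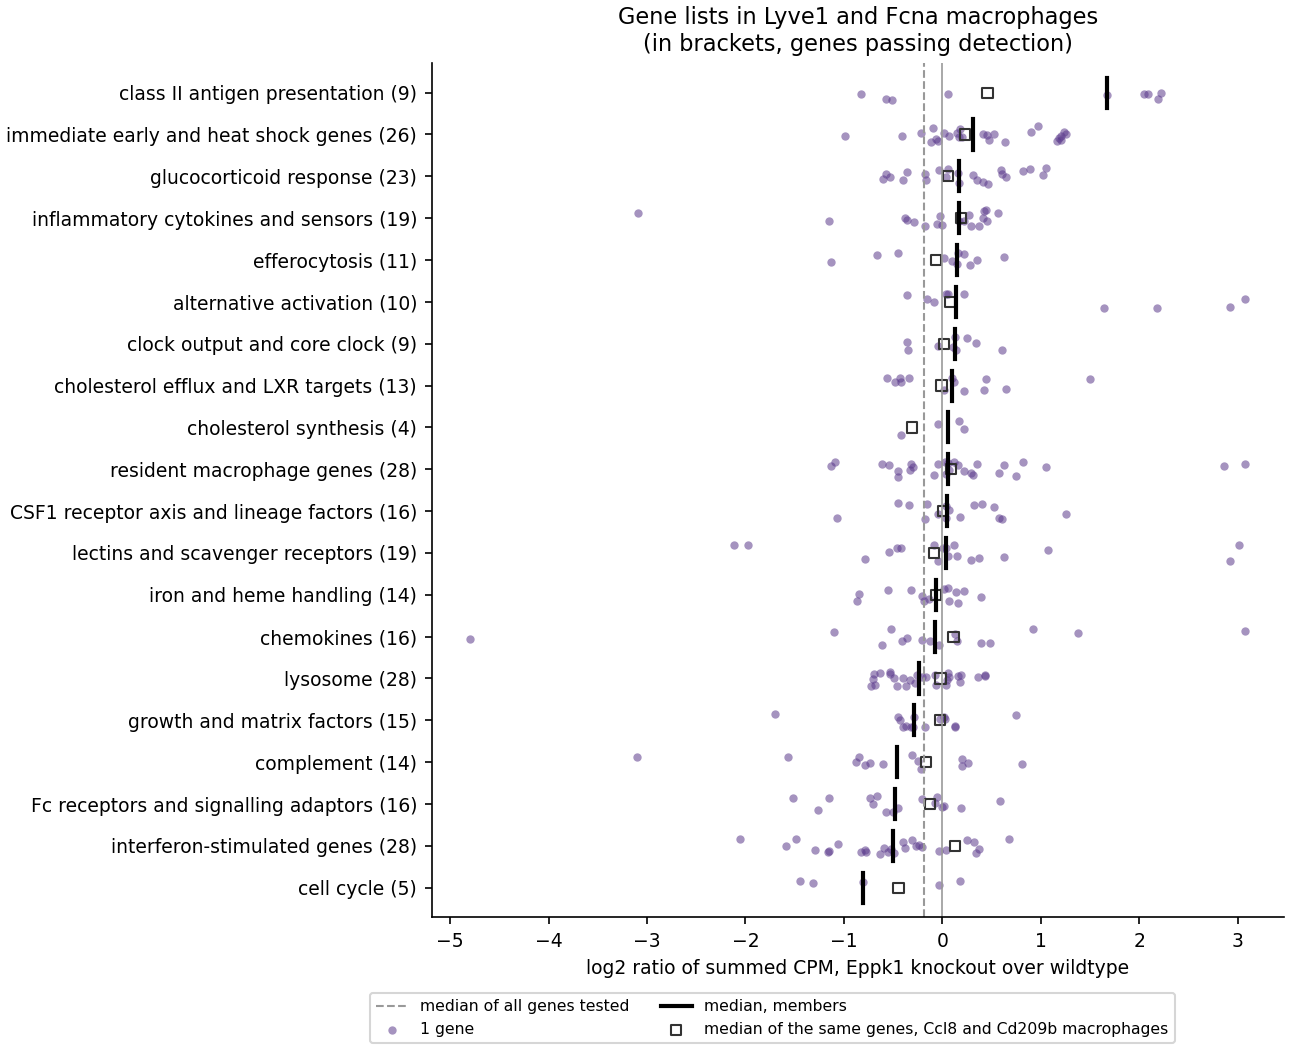
Each dot is 1 gene that passed detection, placed by its log2 ratio of summed CPM, Eppk1 knockout over wildtype, in members (x axis), with 1 row for each gene list. Black bars are list medians in members, open squares medians of the same genes in Ccl8 and Cd209b macrophages, and the dashed line is the median of all 5161 genes tested (-0.19). Apart from marker lists of other cell types, class II lies highest (1.67) and cell cycle (-0.81) and interferon (-0.50) lowest. Cell cycle rests on 5 genes, and the interferon median was -0.01 in members of like depth.

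The other genes at the ends of the range were of mixed kinds. On the lower side were Helz2 (187 and 4 UMIs, -3.75), Pdlim4 (-2.96), the secreted glycoprotein gene Lrg1 (-2.82), Cd300lg (-2.72), the antiviral deaminase gene Apobec3 (238 and 38.1 CPM, -2.62), the replication gene Mcm10 (-2.59), the integrin gene Itga9 (-2.49), Tmem267 (-2.29), the ectoenzyme gene Bst1 (473 and 101 CPM, -2.21), Dnaaf3 (-2.20), the lectin gene Clec5a (-2.15) and Fam71f2 (-2.14). All of these but Bst1 passed detection through wildtype alone, the deeper library, as did Cxcl13, Cd55 and Il1rn. Several rested on few knockout UMIs, as Pdlim4, Cd300lg and Mcm10 had 5 each. In Ccl8 and Cd209b macrophages Tmem267 (-2.34), Apobec3 (-2.02), Clec5a (-1.86), Itga9 (-1.09), Pdlim4 (-1.07), Bst1 (-1.04) and Lrg1 (-0.82) were lower too.

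On the higher side were Hpgd, which breaks down prostaglandins (47 and 111 UMIs, 2.86), Cd83, a gene of mature antigen-presenting cells (264 and 496 UMIs, 2.54), the lectin gene Clec4b1 (2.15), the lysophospholipid receptor gene Gpr34 (1.69) and the secreted phospholipase gene Pla2g2d (178 and 551 CPM, 1.63). Hpgd, Clec4b1 and Gpr34 passed detection through the knockout alone. In Ccl8 and Cd209b macrophages Clec4b1 (1.19), Cd83 (0.93) and Pla2g2d (0.77) were higher too, and Hpgd (0.15) and Gpr34 (0.12) were within the limits. In wildtype, Hpgd was lower in members than in that class by a log2 ratio of -3.68, and in the knockout by -0.96.

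Members also differed from Ccl8 and Cd209b macrophages of the same library. The 2 classes were cut from the same cells, so this is a description. Of the 3097 genes seen in 25% or more of the cells of either class, in each library, 21 were higher in members in both by a log2 ratio of 1 or more (0.678%) and 21 lower (0.678%). Interferon genes made up 5 of those higher, of 23 on the list that could be compared, and their median ratio of members over the other class was 1.37 in wildtype and 0.71 in the knockout.

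The 15 highest by the smaller of both ratios were Adgre5 (2.64 in wildtype and 1.56 in the knockout), the leukotriene synthase gene Ltc4s (2.16 and 1.39), Ifit1, Ifit3, Phf11b, Ifi206, Plac8 (2.35 and 1.30), Retnla (2.63 and 1.28), Cxcl10, Gda, the RNA sensor genes Ifih1 (1.72 and 1.21) and Dhx58, Rcn3, Ccl6 (2.03 and 1.16) and Ifitm6. The 15 lowest were the metalloprotease gene Mmp19 (-2.50 and -3.63), the oxysterol receptor gene Gpr183 (-2.13 and -2.31), Gclm (-1.75 and -1.51), Hmox1 (-1.40 and -1.43), Osgin1, the hyaluronan receptor gene Cd44 (-1.47 and -1.37), Arl4c, Bex3, Ahr, Kif1b, Fgl2, Slamf7, Id2, Mtmr10 and Fam129b. Hmox1 stood at 5988 and 4093 CPM in members and at 15755 and 11052 CPM in the other class. Gclm and Osgin1 are, like Hmox1, known targets of the oxidative stress factor NRF2, whose gene Nfe2l2 was at 706 and 713 CPM in members. NRF2 targets as a group were not tested.

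Since depth differed so much, the leading genes were read in members of like depth. Members of 4000 to 8000 UMIs numbered 47 in wildtype and 113 in the knockout. Retnla was 7201 CPM in these wildtype cells and 32341 CPM in the knockout cells, Apoe 14192 and 38026 CPM, and H2-Aa 3299 and 7020 CPM. Cd74 was 8269 and 16844 CPM, a log2 ratio of 1.03 against 2.04 in all members, and Hpgd was 1.12 against 2.86. Irf7 was 1026 and 392 CPM and Siglec1 883 and 239 CPM. Some genes past 0.5 in all members were within it at this depth: H2-DMa (0.48), Cd40 (-0.21), Cd80 (-0.44), Ifitm3 (-0.29), Cd68 (-0.46), Ctsz (-0.39), Ccl7 (-0.17), Klf2 (0.20), Txnip (0.28), Btg2 (0.15), Pik3r1 (-0.30), Mcm6 (-0.44) and Fam71f2 (-0.42).

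The directions for Retnla, Apoe, H2-Aa, Irf7 and Siglec1 were the same in each of the other bands. Under 2000 UMIs, with 19 wildtype and 31 knockout cells, Retnla was 6030 and 40272 CPM and Irf7 2490 and 426 CPM. From 2000 to 4000 UMIs, with 21 and 39 cells, Irf7 was 1868 and 359 CPM. At 8000 UMIs or more, with 186 and 13 cells, Retnla was 6674 and 19340 CPM and Irf7 1617 and 326 CPM. H2-Aa was 568 and 4312 CPM under 2000 UMIs, 1773 and 8122 CPM from 2000 to 4000, and 1360 and 4280 CPM from 8000 up. Cd74 was 3714 and 14959 CPM, 6654 and 22405 CPM, and 3497 and 11530 CPM in the same bands. Among the bands, that of 4000 to 8000 UMIs had the highest wildtype H2-Aa and Cd74 and the lowest wildtype Irf7. List medians were read in that band only. Mrc1 lay within 2490 and 4003 CPM in every wildtype band and within 2068 and 3600 CPM in every knockout band.

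**Figure D5:**
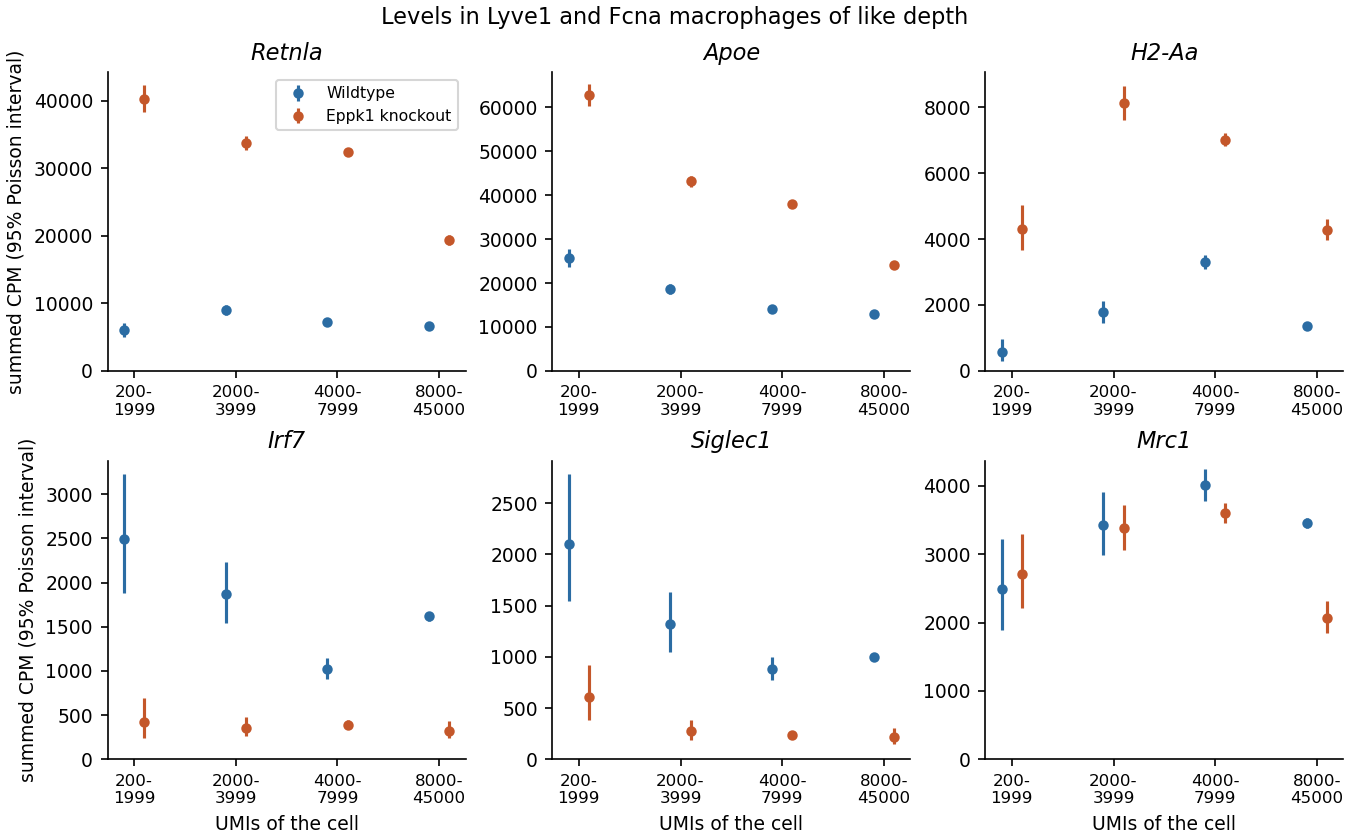
The y axes give summed CPM with 95% Poisson intervals, and the x axes bands of UMIs per cell, for members of the wildtype (blue) and Eppk1 knockout (orange) library, in 6 genes. Retnla, Apoe and H2-Aa are higher and Irf7 and Siglec1 lower in the knockout in every band, and Mrc1 differs beyond its intervals only from 4000 UMIs up.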

How the data were processed

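Whole dorsal skin of 1 wildtype and 1 Eppk1 knockout mouse was profiled by fixed single-cell RNA profiling with hybridised probes. The authors deposited raw UMI counts per gene and cell from Cell Ranger (version not given in the sources used here; builds GRCm38 and mm10 named in the submitters' processing notes), 9179 and 8811 cells with 77638793 and 65118304 UMIs. The numbers of probes per gene were not used here, so levels were not compared between genes.

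The study's limits on UMIs, genes and mitochondrial share were applied, 13 mitochondrial genes removed, and counts summed per library and class (Python 3.11.15, NumPy 2.4.6, SciPy 1.17.1). Log2 ratios had 0.5 UMI added to each sum. Intervals at 95% were exact (Poisson for CPM, conditional binomial for ratios, Clopper-Pearson for shares). The Poisson and binomial intervals ignore the spread between cells and mice. Cells were thinned to 2000 UMIs for shares of cells with a UMI. Named genes were those of the membership rule, Mrc1 and Eppk1, the 15 highest and lowest ratios between genotypes with at least 50 UMIs, the 15 highest and lowest against Ccl8 and Cd209b macrophages, and list members. Members and gene lists were chosen with earlier results of these data known. Of 540 list entries, 9 genes had no row and were not analysed here. Doublets were not removed; leaving out the 5% highest Scrublet scores (Scanpy 1.11.5) was an alternative, as were TMM scaling (edgeR 4.0.16), centring, other filters on cells and genes, stricter membership, thinning and leaving out shared droplets. A depth-matched band and all gated macrophages were added after seeing the data. Calculations were tested on simulated data. Gene positions came from GENCODE (GRCm38.p6) and upstream sequences from RefSeq. A few list genes are counted in their lists but not reported here by name.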

Additional observations from a re-analysis of the deposited data

Results flagged for a closer look

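In 3 gene lists of at least 10 genes the median log2 ratio of knockout over wildtype was at least 0.4 from 0 in members and of the opposite sign, at least 0.1 from 0, in another set of cells; smaller medians of opposite sign are not listed. Complement genes had a median of -0.46 in members and 0.36 in cells outside the gate. Fc receptor and adaptor genes had -0.48 in members and 0.30 outside the gate. Interferon-stimulated genes had -0.50 in members and 0.13 in Ccl8 and Cd209b macrophages, but -0.01 in members of 4000 to 8000 UMIs. These differences were not tested, since each genotype had 1 library.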

How the results depend on the processing

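No paired analysis was possible because each genotype had 1 library. Of the 309 genes higher and 1246 lower of 5161 in knockout members, the counts became 635 and 703 after centring on the median, 695 and 1886 (of 7756 genes) with a UMI in 10% of members, 2722 and 3386 (of 13391) with no detection rule, 153 and 327 (of 1360) after thinning, and 159 and 646 (of 4493) over all gated macrophages. The 21 genes higher and 21 lower than in Ccl8 and Cd209b macrophages became 50 and 63 with a UMI in 10%, and 220 and 598 with no detection rule, and those lower became 10 after thinning. Eppk1 in members was -0.25 with stricter purity and -0.53 in members of 4000 to 8000 UMIs. Of 122 named genes past 0.5, 113 kept their sign under the 13 alternatives run for genes and 70 also stayed past 0.5. The sign changed for Lpcat3 with means over cells (-0.54), stricter purity (-0.68), thinning (-0.67), without the highest doublet scores (-0.68) and in members of 4000 to 8000 UMIs (-0.12), for C1ra on thinning (0.012), and for Abcg1 over all gated macrophages (0.068). In members of 4000 to 8000 UMIs it changed for Arl4c (-0.89), Isg15 (0.17), Stab1 (-0.66), Cebpa (-0.33), Osm (0.43) and Mcm2 (0.92) and for the median of the interferon list over the 27 genes detected there (0.049, and -0.01 over all 28), and the cell cycle median was 0.018 after thinning (1 gene) and 0.28 over all gated macrophages (3 genes). The class II median, 1.67, lay between 0.898 (all gated macrophages) and 1.86 (thinned) over the genes detected under each alternative, and was 0.48 over the same 9 genes in members of 4000 to 8000 UMIs. The causes were not tested.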

Other observations

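The share of a gene's UMIs in kept cells that lay in members was read for a few genes that the rule did not use. Members held 77.4% in wildtype and 29.7% in the knockout of Timd4 UMIs, 72.9% and 30.7% of Folr2 UMIs, 50.3% and 18.4% of Mrc1 UMIs and 44.2% and 11.5% of Irf7 UMIs. Members were 3.08% and 2.27% of the cells, and in wildtype their cells were also deeper.

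Of the monocyte-like list 4 of 14 genes passed detection, 2 of them higher and 2 lower (5.99% and 24.1% of all genes). Plac8 (-1.20) and S100a4 (-1.37) were lower and Lyz2 (2712 and 3968 CPM, 0.55) and Nr4a1 (1.25) higher in knockout members.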
